A study of Mus musculus with 2 samples.

Results

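Genes of neurogenesis and of the dentate granule lineage were read out of single-nucleus RNA profiles of mouse hippocampus: Sox2, Eomes, Neurod1, Neurod2, Neurod6, Sox4, Sox11, Igfbpl1, Prox1 and Bcl11b. These 10 genes were taken by gene symbol from the 32285 genes in the deposited matrices. Their levels were described by class of nuclei, by library and by mouse, with dentate granule neurons kept apart from a cluster of neurons marked by Prdm16 and Ano1 that held most of the Igfbpl1 RNA of 1 library.

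In the adult dentate gyrus, radial glia-like stem cells that express Sox2 give rise to intermediate progenitors marked by Eomes, and these to neuroblasts that switch on Neurod1, Sox4, Sox11 and Igfbpl1 before they mature into granule neurons. Prox1 is a homeodomain factor that specifies granule identity and is kept in mature granule neurons, and Bcl11b (Ctip2) is a zinc finger factor of granule, CA1 and striatal neurons. The related basic helix-loop-helix factors Neurod2 and Neurod6 are known from postmitotic excitatory neurons, Neurod6 above all from the pyramidal cells of the hippocampus and cortex.

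Both libraries came from hippocampi of mice aged 8 months that carry 5XFAD, human transgenes with familial Alzheimer's disease mutations driven by the neuronal Thy1 promoter. The first library is labelled 5XFAD x MR1 KO, for mice that by this label also lack MR1, the molecule that presents antigen to MAIT cells (mucosal-associated invariant T cells), and the other is labelled 5XFAD. Each library pooled 1 female and 1 male mouse, and no mice without 5XFAD were analysed here. The title of the series asks how the MR1 and MAIT cell axis bears on dystrophic neurites. With 1 library a genotype there was no replicate and no test, so every difference between the libraries is a difference between 2 libraries, and the intervals given are 95% intervals that cover counting error only.

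After filtering, 17026 nuclei with a median of 2518 unique molecular identifiers (UMIs, counts of single RNA molecules) were kept in the library labelled MR1 knockout, and 11948 nuclei with a median of 3706 UMIs in the 5XFAD library. The deposited lists shared 182 cell barcodes, and the kept nuclei 61. Mr1 itself went against its label: it had 66 UMIs or 1.19 CPM (the gene's UMIs in each 1000000 UMIs counted, over all nuclei or over 1 class) in the library labelled MR1 knockout, against 32 UMIs or 0.572 CPM in the 5XFAD library, a ratio of 2.07 (1.34 to 3.26). Whether the 3' reads cover the deleted part of Mr1 was not tested. Several clusters came nearly all from 1 library: a Smoc1 and Otof cluster held 2340 nuclei of the library labelled MR1 knockout and 48 of the 5XFAD library, a Pdzrn3 and Rorb cluster 27 nuclei (labelled MR1 knockout) and 663 nuclei (5XFAD), and striatal medium spiny neurons, a cell type from outside the hippocampus, 4 nuclei (labelled MR1 knockout) and 1138 nuclei (5XFAD). Xist and Y-linked UMIs assigned 8882 nuclei to the female and 3059 to the male mouse of the library labelled MR1 knockout, against 5254 and 3425 nuclei in the 5XFAD library. The remaining 5085 nuclei (labelled MR1 knockout) and 3269 nuclei (5XFAD) were assigned to neither mouse. Levels and shares by mouse rest on the assigned nuclei alone.

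The genes differed most in which classes of nuclei held them. Sox2, a stem cell factor that glia of the adult brain also express, was highest in astrocytes in both libraries, at 136 CPM in the library labelled MR1 knockout and 132 CPM in the 5XFAD library. Committed oligodendrocyte precursors held 81.7 CPM in the library labelled MR1 knockout, from 12 UMIs and with an interval of 42.2 to 143 CPM, and had too few nuclei in the 5XFAD library. Oligodendrocytes held 75.9 CPM (labelled MR1 knockout) and 83.0 CPM (5XFAD), oligodendrocyte precursors with 47.5 CPM (labelled MR1 knockout) and 44.9 CPM (5XFAD), and inhibitory neurons with 26.5 CPM (labelled MR1 knockout) and 25.0 CPM (5XFAD). Granule neurons held 3.17 CPM of Sox2 in the library labelled MR1 knockout and 3.12 CPM in the 5XFAD library. No cluster was named for radial glia-like progenitors, neuroblasts or dividing cells, so the Sox2 RNA of any stem cells could not be told apart from that of astrocytes. Eomes, the marker of intermediate progenitors, was found as 4 UMIs among the 17026 nuclei of the library labelled MR1 knockout and as 1 UMI among the 11948 nuclei of the 5XFAD library, which is too few for any comparison.

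Neurod6 was highest in CA2/CA3 pyramidal neurons, with 230.4 CPM in the library labelled MR1 knockout and 237 CPM in the 5XFAD library, and a UMI in 60.7% (labelled MR1 knockout) and 70.8% (5XFAD) of those nuclei. CA1 pyramidal neurons held 161 CPM (labelled MR1 knockout) and 177 CPM (5XFAD). Dentate granule neurons held 29.3 CPM in the library labelled MR1 knockout and 23.2 CPM in the 5XFAD library, which lay below microglia at 78.7 CPM (labelled MR1 knockout) and 75.2 CPM (5XFAD). Microglia should not transcribe Neurod6, but whether the granule level is background was not tested. The Neurod6 share of nuclei was 6.29% in granule neurons (median depth 1980.5 UMIs) and 7.61% in microglia (median depth 892 UMIs) of the library labelled MR1 knockout, against 8.76% (3436.5 UMIs) and 10.4% (1284 UMIs) in the 5XFAD library.

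Neurod2 was spread over the excitatory classes, at 54.6 CPM in the library labelled MR1 knockout and 42.6 CPM in the 5XFAD library in CA2/CA3 neurons, 53.5 CPM (labelled MR1 knockout) and 37.9 CPM (5XFAD) in CA1 neurons, and 43.1 CPM (labelled MR1 knockout) and 50.8 CPM (5XFAD) in granule neurons. Inhibitory neurons held 8.65 CPM (labelled MR1 knockout) and 7.39 CPM (5XFAD). Microglia held 50.2 CPM in the library labelled MR1 knockout and 23.2 CPM in the 5XFAD library, and oligodendrocytes 50.9 CPM (labelled MR1 knockout) and 17.8 CPM (5XFAD), so that in the library labelled MR1 knockout these glia did not lie below granule neurons. Neurod1 was low in every class. Its highest level was in an unnamed, shallow cluster led by the transcripts AY036118 and Gm42418, with 56.4 CPM in the library labelled MR1 knockout and 23.2 CPM in the 5XFAD library at a median of 682 UMIs per nucleus in both. Granule neurons held 15.6 CPM in the library labelled MR1 knockout, close to the 16.3 CPM of its microglia, and 9.87 CPM in the 5XFAD library, against 2.89 CPM in its microglia from 1 UMI.

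Sox11 and Sox4 are SoxC factors that are switched on as neurons begin to differentiate. Sox11 was highest in clusters of neurons, and their order differed between the libraries. In the library labelled MR1 knockout the Prdm16 and Ano1 cluster (68.7 CPM), granule neurons (66.3 CPM) and an unnamed cluster led by Tshz2 (62.1 CPM) came first. In the 5XFAD library the Tshz2 cluster (67.1 CPM), an unnamed cluster led by Foxp2 and Pbx3 (59.95 CPM) and the Prdm16 and Ano1 cluster (45.2 CPM) came first, and granule neurons held 37.8 CPM. In each library the intervals of the first 3 overlap. The Prdm16 and Ano1 cluster held different nuclei in the libraries, so its place in the order is not that of 1 cell type. Its nuclei had 8 UMIs of Prdm16 and 4 of Ano1 (labelled MR1 knockout), against 559 and 619 (5XFAD). Oligodendrocytes held 16.6 CPM (labelled MR1 knockout) and 10.2 CPM (5XFAD). Sox4 was highest in the oligodendrocyte line: committed oligodendrocyte precursors held 157 CPM in the library labelled MR1 knockout from 23 UMIs (30 nuclei in the 5XFAD library, too few to set beside it), and oligodendrocyte precursors 47.5 CPM (labelled MR1 knockout) and 52.4 CPM (5XFAD). In granule neurons the Sox4 level was 9.85 CPM in the library labelled MR1 knockout and 6.41 CPM in the 5XFAD library, below the 29.9 CPM (labelled MR1 knockout) and 14.5 CPM (5XFAD) of microglia.

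Prox1 set granule neurons apart in both libraries. They held 217 CPM (207 to 227) in the library labelled MR1 knockout and 247 CPM (234 to 260) in the 5XFAD library. Oligodendrocytes came next with 131 CPM (109 to 156) in the library labelled MR1 knockout and 176 CPM (153 to 202) in the 5XFAD library, and an unnamed inhibitory cluster led by Hapln1 and Egfr with 82.7 CPM (labelled MR1 knockout) and 59.9 CPM (5XFAD). CA2/CA3 neurons held 3.28 CPM (labelled MR1 knockout) and 3.35 CPM (5XFAD) of Prox1. In all, 71.4% of the Prox1 UMIs of the library labelled MR1 knockout and 68.6% of those of the 5XFAD library lay in granule neurons, which made up 23.8% (labelled MR1 knockout) and 12.3% (5XFAD) of the nuclei. A Prox1 UMI was seen in 34.7% (labelled MR1 knockout) and 51.7% (5XFAD) of granule nuclei, and in 18.3% (labelled MR1 knockout) and 19.6% (5XFAD) after every nucleus had been thinned to 1000 UMIs, beside 0.421% (labelled MR1 knockout) and 0.347% (5XFAD) of CA2/CA3 nuclei thinned alike. Bcl11b did not separate granule neurons. It held 181 CPM in granule neurons of the library labelled MR1 knockout and 203 CPM in those of the 5XFAD library, beside 213 CPM (labelled MR1 knockout) and 178 CPM (5XFAD) in CA1 neurons and 199 CPM (labelled MR1 knockout) and 185 CPM (5XFAD) in subicular or cortical excitatory neurons. CA2/CA3 neurons stood lower, at 43.9 CPM (labelled MR1 knockout) and 44.2 CPM (5XFAD), and the striatal neurons of the 5XFAD library held 255 CPM.

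**Figure D1:**
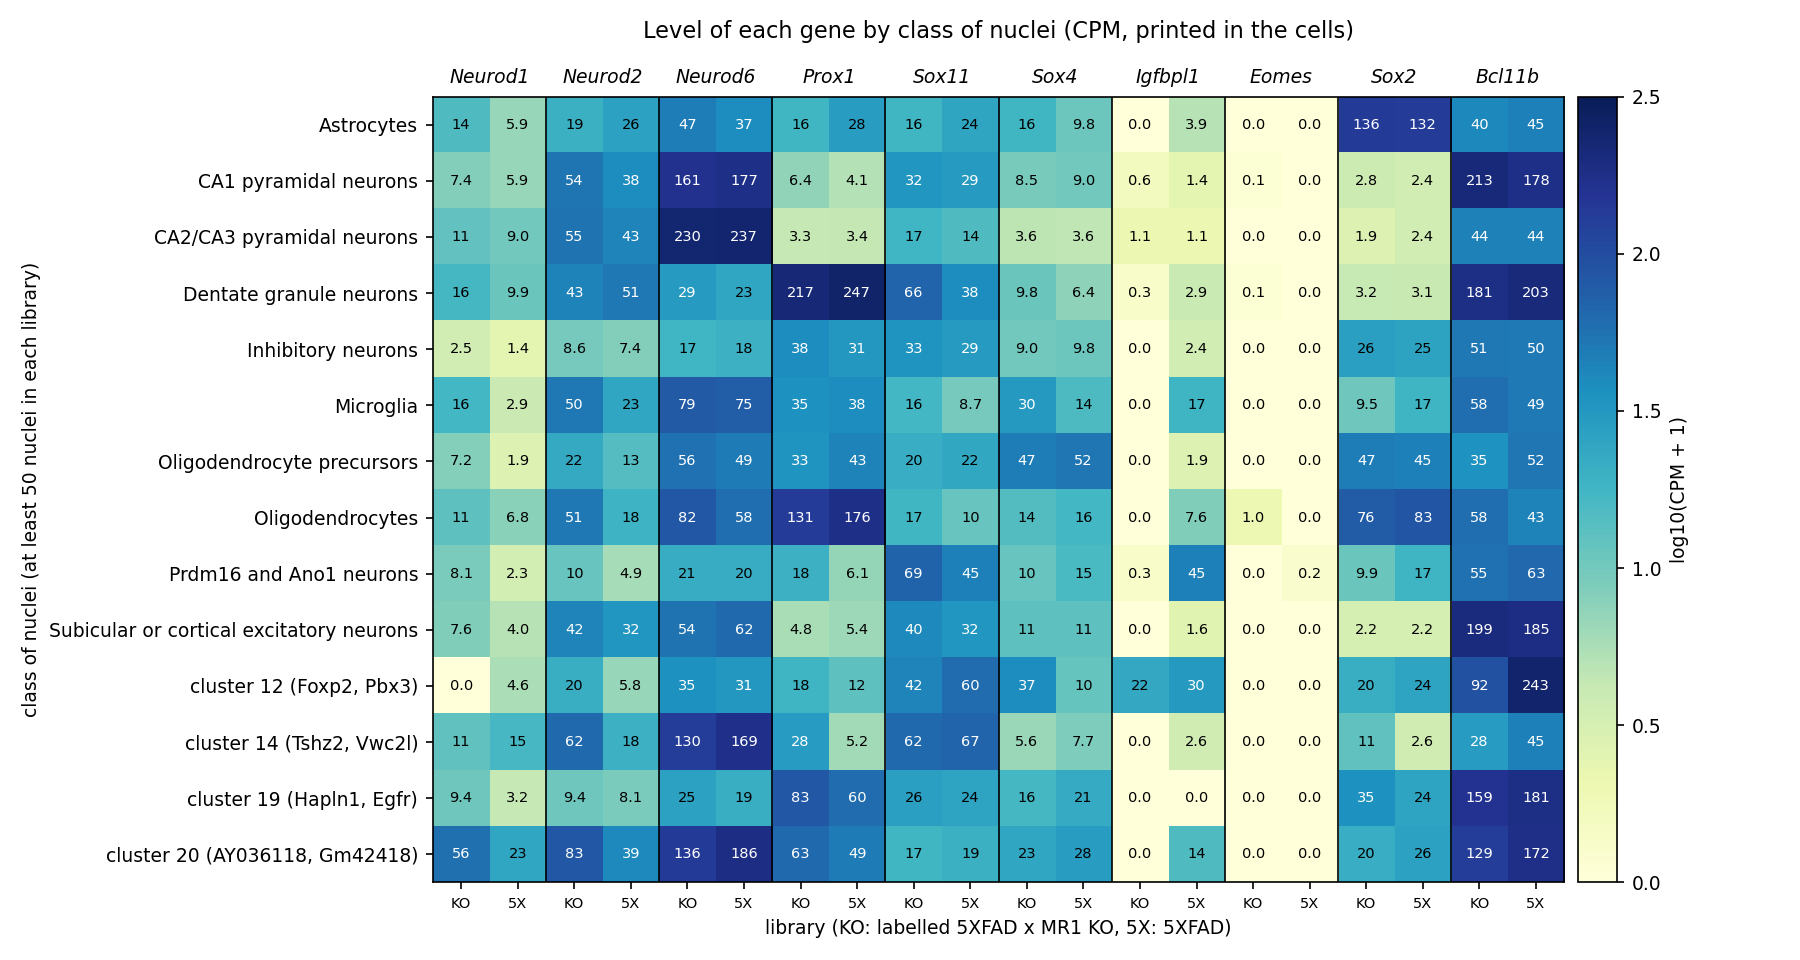
Level of each of the 10 genes (columns, in pairs of the library labelled 5XFAD x MR1 KO, KO, and the 5XFAD library, 5X) in each class of nuclei with at least 50 nuclei in both libraries (lines), in CPM printed in each cell, with colour for log10(CPM + 1). Prox1 stands at 217 CPM (labelled MR1 knockout) and 247 CPM (5XFAD) in granule neurons, Neurod6 at 230.4 CPM (labelled MR1 knockout) and 237 CPM (5XFAD) in CA2/CA3 neurons, and Sox2 at 136 CPM (labelled MR1 knockout) and 132 CPM (5XFAD) in astrocytes, while Igfbpl1 reaches 44.7 CPM in the Prdm16 and Ano1 neurons of the 5XFAD library.

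Between the libraries, all nuclei together were compared first. A gene was counted as past the fold when its CPM ratio, the library labelled MR1 knockout over 5XFAD, was at least 1.5 or at most the inverse of 1.5, with at least 20 UMIs in both libraries together. Of the 9 genes with enough UMIs, 2 were past the fold, Neurod1 above and Igfbpl1 below, beside 15.4% of the 20793 genes measured (11.1% above and 4.25% below). The median log2 ratio of the 9 genes was -0.04, against 0.13 over all genes, with 4 of the 9 above and 5 below a ratio of 1. Over all nuclei, the share of a class among the nuclei and the RNA level within a nucleus cannot be told apart.

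Neurod1, which drives the differentiation of granule neurons, had 604 UMIs or 10.8 CPM in the library labelled MR1 knockout and 333 UMIs or 5.96 CPM in the 5XFAD library, a ratio of 1.82 (1.59 to 2.09). It was higher in both mice of the library labelled MR1 knockout, at 10.8 CPM in the female and 9.39 CPM in the male, than in those of the 5XFAD library, at 7.01 and 4.70 CPM. Without the clusters that came over 80% from 1 library the ratio was 1.49 (1.27 to 1.75), just under the fold. The ratio lay above 1 in each of the 9 named classes with at least 50 nuclei in both libraries, but the interval left out 1 in granule neurons (1.58, 1.16 to 2.19) and in subicular or cortical neurons (1.93, 1.05 to 3.51) and in no other of the 9. It was 2.39 (0.51 to 14.8) in astrocytes, 1.27 (0.88 to 1.82) in CA1, 1.24 (0.91 to 1.70) in CA2/CA3 and 1.76 (0.64 to 5.60) in inhibitory neurons. It was 5.63 (0.833 to 241) in microglia, 1.69 (0.62 to 4.83) in oligodendrocytes and 3.85 (0.43 to 182) in oligodendrocyte precursors. In the unnamed Tshz2 cluster it lay below 1, at 0.73 (0.08 to 3.27), and in the Foxp2 and Pbx3 cluster Neurod1 had 0 UMIs (labelled MR1 knockout) and 4 UMIs or 4.61 CPM (5XFAD).

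Igfbpl1, a secreted protein of the IGF-binding family that is known from developing neurons, had 39 UMIs or 0.70 CPM in the library labelled MR1 knockout and 331 UMIs or 5.92 CPM in the 5XFAD library, a ratio of 0.12 (0.08 to 0.17). The male mouse of the 5XFAD library stood alone, at 9.66 CPM. Its female mouse held 1.68 CPM, and the mice of the library labelled MR1 knockout 0.90 CPM (female) and 0.427 CPM (male). Without the one-library clusters the ratio was 0.10 (0.06 to 0.15).

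The other 7 genes stayed within the fold over all nuclei. Sox11 held 40.4 CPM in the library labelled MR1 knockout and 28.4 CPM in the 5XFAD library (ratio 1.42, 1.33 to 1.52). Prox1 held 49.8 CPM (labelled MR1 knockout) and 37.2 CPM (5XFAD), a ratio of 1.34 (1.27 to 1.42), and Neurod2 37.6 CPM (labelled MR1 knockout) and 28.8 CPM (5XFAD), a ratio of 1.31 (1.22 to 1.40). Neurod6 was lower, with 83.7 CPM in the library labelled MR1 knockout and 98.9 CPM in the 5XFAD library (0.85, 0.81 to 0.88), and so was Bcl11b with 123 CPM (labelled MR1 knockout) and 135 CPM (5XFAD), a ratio of 0.92 (0.89 to 0.95). Sox4 and Sox2 had ratios of 0.97 with intervals that include 1. Without the one-library clusters these ratios were closer to 1 or on its other side, at 1.13 for Sox11, 0.93 (0.87 to 0.998) for Prox1, 1.27 for Neurod2, 0.97 for Neurod6, 0.92 for Bcl11b, 1.02 for Sox4 and 1.13 for Sox2. For Neurod6 and Prox1 the values also differed by mouse. The Neurod6 ratio was 0.50 between the female mice and 1.56 between the male mice, and that of Prox1 0.79 and 3.40, and the share of granule neurons was 23.7% of the nuclei of the female and 25.2% of those of the male in the library labelled MR1 knockout, against 22.8% and 3.88% in the 5XFAD library.

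**Figure D2:**
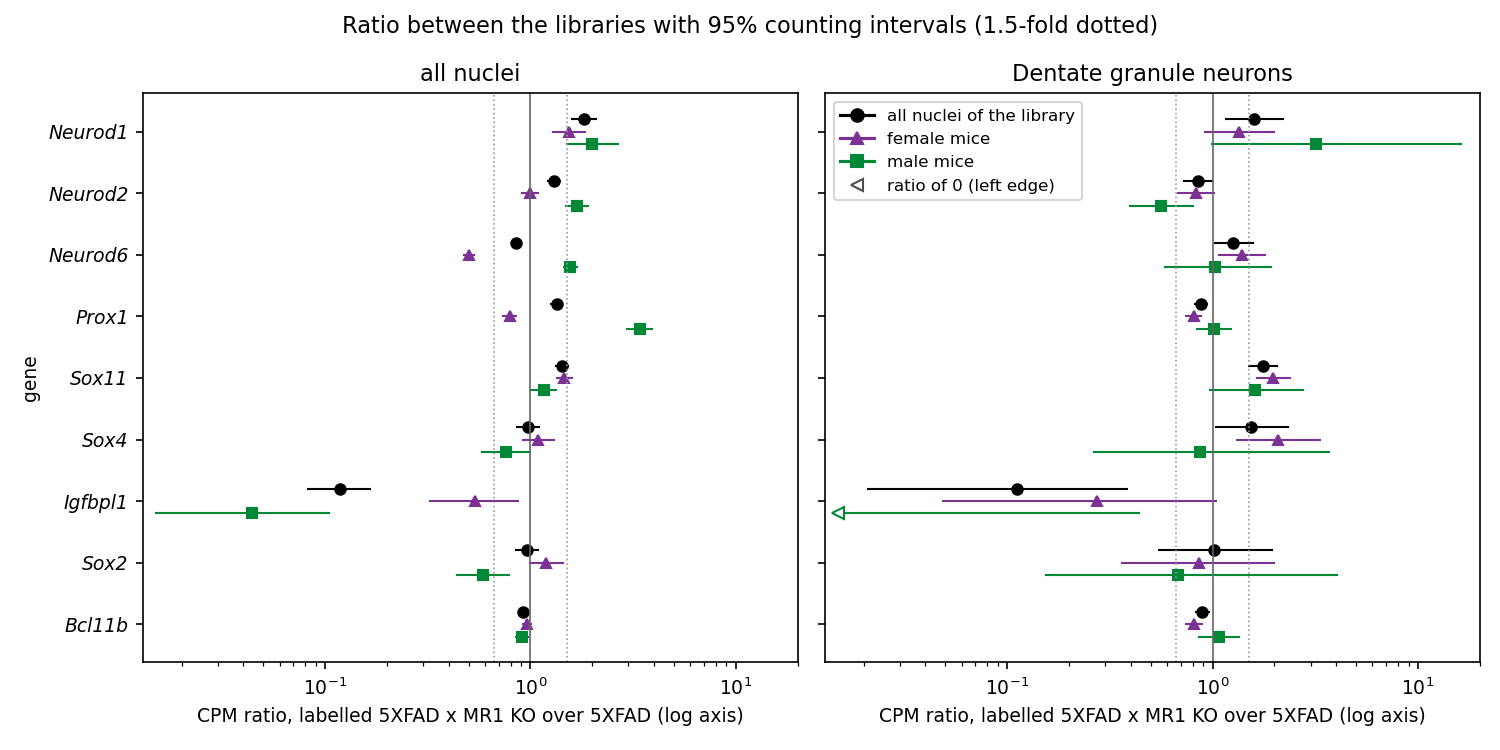
CPM ratio of the library labelled 5XFAD x MR1 KO over the 5XFAD library for 9 of the genes (Eomes, with 5 UMIs in all, is not drawn), over all nuclei (left panel) and in dentate granule neurons (right panel), on a log axis with 95% counting intervals. Black circles stand for all nuclei of the library, purple triangles for the female mice, green squares for the male mice, an open arrow at the left edge for a ratio of 0, and dotted lines for 1.5-fold. Over all nuclei Igfbpl1 lies at 0.12 and Neurod1 at 1.82, and the female and male values of Prox1, 0.79 and 3.40, lie on opposite sides of 1.

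Dentate granule neurons were 4054 nuclei, 23.8% of the library labelled MR1 knockout, and 1472 nuclei, 12.3% of the 5XFAD library. Their own markers were high in both, for example Stxbp6 with 773 CPM in the library labelled MR1 knockout and 721 CPM in the 5XFAD library, and Glis3 with 650.1 CPM (labelled MR1 knockout) and 782 CPM (5XFAD). Different clusters held most of them. The cluster led by C1ql2 and Stxbp6 had 2976 nuclei of the library labelled MR1 knockout and 209 of the 5XFAD library, and the cluster led by Glis3 and Maml2 had 1078 nuclei (labelled MR1 knockout) and 1263 nuclei (5XFAD). The median depth was 1781 UMIs (labelled MR1 knockout) and 1739 UMIs (5XFAD) in the C1ql2 cluster and 2572 UMIs (labelled MR1 knockout) and 3721 UMIs (5XFAD) in the Glis3 cluster. Within granule neurons, 4 of 9 genes were past the fold, Neurod1, Sox11 and Sox4 above and Igfbpl1 below, beside 20.8% of 14998 genes (14.6% above and 6.15% below). The median log2 ratio was 0.01 over the 9 genes and 0.13 over all genes.

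Sox11 had 606 UMIs or 66.3 CPM in granule neurons of the library labelled MR1 knockout and 218 UMIs or 37.8 CPM in those of the 5XFAD library, a ratio of 1.76 (1.502 to 2.06). By mouse the level was 76.3 CPM in the female and 51.3 CPM in the male of the library labelled MR1 knockout, and 38.6 and 32.0 CPM in the 5XFAD library, so that both mice of the library labelled MR1 knockout lay above both of the 5XFAD library. The male mouse of the 5XFAD library had only 133 granule nuclei, and the mice differed in their clusters. In the female labelled MR1 knockout 1970 of 2106 granule nuclei lay in the C1ql2 cluster. In the 5XFAD female 1063 of 1199 lay in the Glis3 cluster. The ratio was 1.63 (1.04 to 2.69) within the C1ql2 cluster and 1.41 (1.14 to 1.74) within the Glis3 cluster, and the value of the Glis3 cluster is under the fold. After thinning to 1000 UMIs, 6.52% of granule nuclei of the library labelled MR1 knockout and 3.23% of those of the 5XFAD library held a Sox11 UMI, beside 1.18% (labelled MR1 knockout) and 1.16% (5XFAD) of oligodendrocytes. Among other neurons the Sox11 ratio was 1.11 in CA1, 1.22 in CA2/CA3 and 1.12 in inhibitory neurons. Sox11 was also above the fold in oligodendrocytes and in the Prdm16 and Ano1 cluster. That cluster held 68.7 CPM (labelled MR1 knockout) and 45.2 CPM (5XFAD), in nuclei that differed between the libraries.

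Neurod1 had 143 UMIs or 15.6 CPM in granule neurons of the library labelled MR1 knockout and 57 UMIs or 9.87 CPM in those of the 5XFAD library, a ratio of 1.58 (1.16 to 2.19). The female and male mice held 14.0 and 16.1 CPM in the library labelled MR1 knockout, and 10.3 and 5.06 CPM in the 5XFAD library, the last from 3 UMIs. The ratio was 1.17 (0.52 to 3.28) in the C1ql2 cluster and 1.58 (1.04 to 2.39) in the Glis3 cluster. Under edgeR's TMM scaling it was 1.48 and with nuclei thinned to 1000 UMIs 1.37, both under the fold. The Neurod1 RNA of glia and of the shallow AY036118 cluster was also higher in the library labelled MR1 knockout, and its part in the granule value was not tested.

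Sox4 had 90 UMIs or 9.85 CPM in granule neurons of the library labelled MR1 knockout and 37 UMIs or 6.41 CPM in those of the 5XFAD library, a ratio of 1.54 (1.04 to 2.32). The female mouse of the library labelled MR1 knockout stood apart with 12.7 CPM. Its male mouse held 5.86 CPM, and the mice of the 5XFAD library 6.12 and 6.74 CPM. Within the Glis3 cluster the Sox4 ratio lay below 1, at 0.80 (0.40 to 1.53), and within the C1ql2 cluster it was 1.10 (0.45 to 3.49), so the direction was not the same in both clusters. The Sox4 ratio was 1.02 (0.52 to 2.13) with nuclei under 1% mitochondrial UMIs, and with nuclei thinned to 1000 UMIs 1.56 as the mean over draws and 5.43 (1.73 to 27.4) in 1 random draw. Within the C1ql2 cluster alone 2 of 8 genes were past the fold (Sox11 above, Sox2 below), beside 32.6% of all genes, and within the Glis3 cluster alone 2 of 8 (Neurod1 above, Sox2 below), beside 12.5%.

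The genes of mature granule neurons lay near or below 1. Prox1 had 1982 UMIs or 217 CPM in granule neurons of the library labelled MR1 knockout and 1426 UMIs or 247 CPM in those of the 5XFAD library (ratio 0.88, 0.82 to 0.94). The ratio was 1.18 within the C1ql2 cluster and 1.04 within the Glis3 cluster, each with an interval that includes 1, and the C1ql2 cluster, which holds most granule nuclei of the library labelled MR1 knockout, had the lower Prox1 level in both libraries (192 CPM labelled MR1 knockout, 163 CPM 5XFAD, against 265 CPM labelled MR1 knockout, 254 CPM 5XFAD in the Glis3 cluster). Bcl11b held 181 CPM (labelled MR1 knockout) and 203 CPM (5XFAD), a ratio of 0.89 (0.83 to 0.96), with 1.12 and 0.97 within the C1ql2 and Glis3 clusters. Neurod2 held 43.1 CPM in the library labelled MR1 knockout and 50.8 CPM in the 5XFAD library (0.85, 0.73 to 0.99), where the male mouse, with 84.3 CPM, lay far above the other 3 mice, at 37.0 to 47.4 CPM. Neurod6 held 29.3 CPM (labelled MR1 knockout) and 23.2 CPM (5XFAD), a ratio of 1.26 (1.02 to 1.57), at levels below those of microglia given above. Igfbpl1 was found as 3 UMIs among the 4054 granule nuclei of the library labelled MR1 knockout and as 17 UMIs among the 1472 of the 5XFAD library (0.11, 0.02 to 0.39), Sox2 as 29 UMIs (labelled MR1 knockout) and 18 UMIs (5XFAD), a ratio of 1.02 (0.55 to 1.95), and Eomes as 1 UMI (labelled MR1 knockout) and none (5XFAD).

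**Figure D3:**
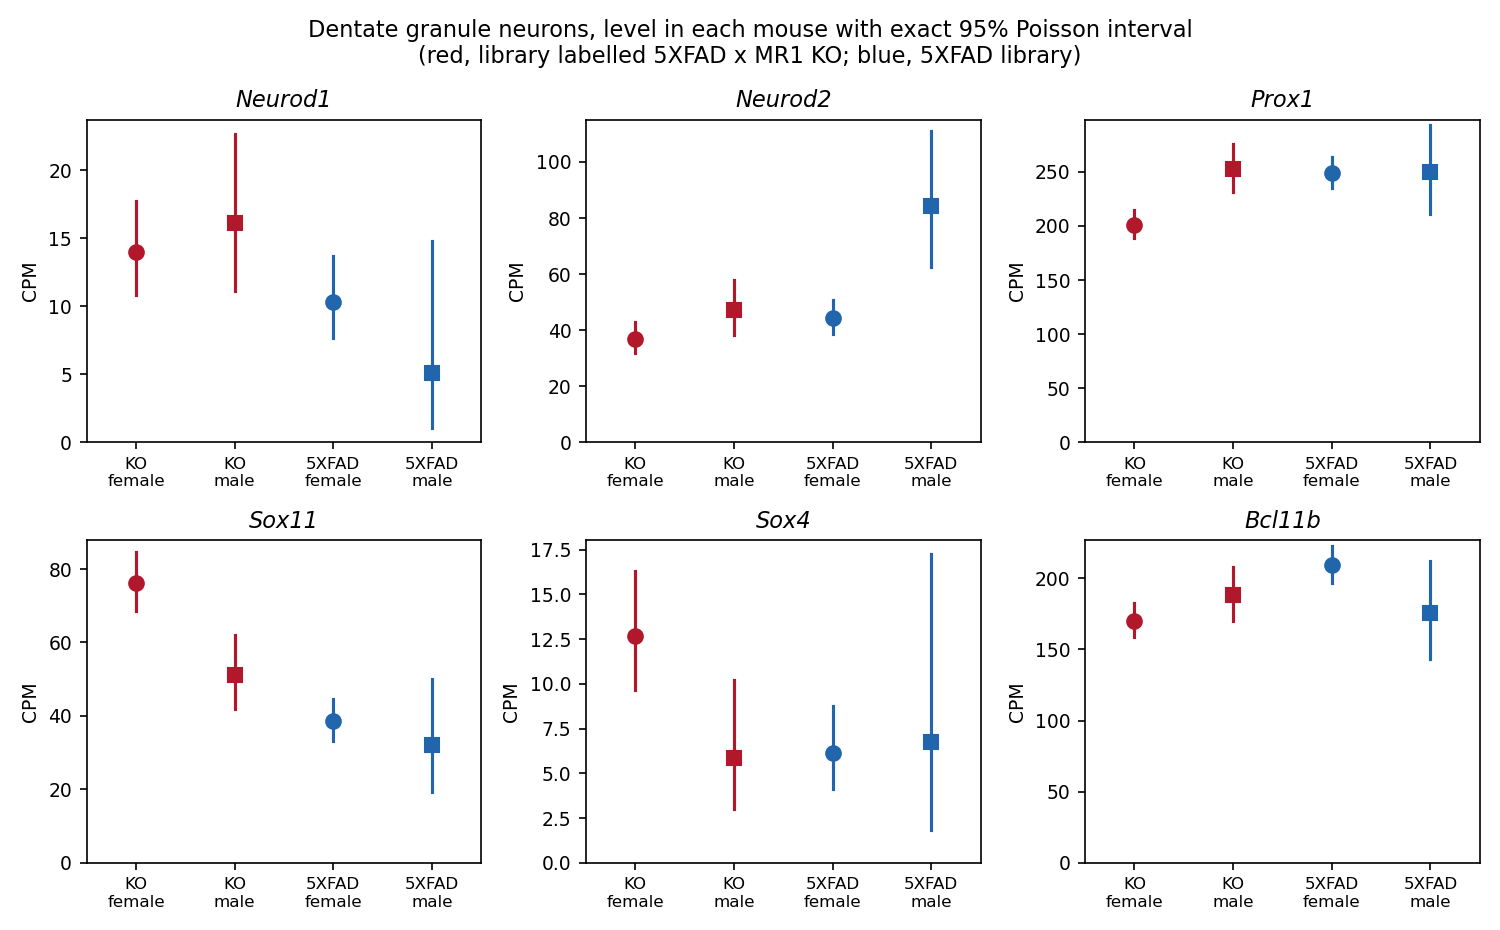
Level of 6 of the genes in dentate granule neurons in each mouse, in CPM with exact 95% Poisson intervals (circles, female mice, squares, male mice, red, library labelled 5XFAD x MR1 KO, blue, 5XFAD library), each panel with its own axis from 0. Sox11 stands at 76.3 and 51.3 CPM in the female and male mouse of the library labelled MR1 knockout, above 38.6 and 32.0 CPM in those of the 5XFAD library, while Prox1 and Bcl11b do not separate the libraries by mouse.

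Neurod1, Sox11 and Sox4 were the genes above the fold in granule neurons, so the stretch around each start site (300 bases, 250 before and 50 after the RefSeq start, GRCm38.p6) is shown in the direction of the gene. E-boxes are motifs that factors of the Neurod family are known to bind. Windows were searched on both strands for 2 E-box sequences and no others. The first was CAGATG, which the opposite strand reads as CATCTG, and the second, CAGCTG, is its own reverse complement. The Sox motif searched was ACAAAG, which reads as CTTTGT on the opposite strand. No matches overlapped in the windows shown. The windows lie at chr2:79456587-79456886 for Neurod1, chr12:27342669-27342968 for Sox11 and chr13:28953650-28953949 for Sox4, all on the minus strand, and capitals mark an E-box.
Neurod1: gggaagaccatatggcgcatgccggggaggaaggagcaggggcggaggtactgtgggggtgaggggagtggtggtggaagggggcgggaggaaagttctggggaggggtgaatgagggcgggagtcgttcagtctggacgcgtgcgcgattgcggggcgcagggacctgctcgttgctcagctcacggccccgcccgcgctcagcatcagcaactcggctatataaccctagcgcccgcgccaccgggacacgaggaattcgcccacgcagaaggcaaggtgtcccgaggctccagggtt
Sox11: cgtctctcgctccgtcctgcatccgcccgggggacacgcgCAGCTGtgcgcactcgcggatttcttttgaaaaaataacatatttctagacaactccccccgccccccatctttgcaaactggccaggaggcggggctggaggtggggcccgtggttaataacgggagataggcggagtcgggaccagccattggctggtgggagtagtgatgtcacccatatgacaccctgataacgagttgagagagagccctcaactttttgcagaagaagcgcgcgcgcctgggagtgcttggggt
Sox4: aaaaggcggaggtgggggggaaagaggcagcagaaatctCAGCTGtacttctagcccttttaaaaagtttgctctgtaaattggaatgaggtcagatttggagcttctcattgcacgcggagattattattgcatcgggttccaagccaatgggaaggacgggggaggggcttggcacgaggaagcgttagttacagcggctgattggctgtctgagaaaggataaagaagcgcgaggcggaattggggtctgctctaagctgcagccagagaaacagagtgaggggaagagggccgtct
The Sox11 and Sox4 windows each hold 1 CAGCTG, and the Neurod1 window holds neither of the E-box sequences searched. Of all 32851 RefSeq windows of this length, 17.2% hold CAGATG, 16.3% CAGCTG, 30.6% either of them, and 18.7% ACAAAG. Of the 10 windows of the 9 genes in the table, 4 hold CAGATG or CAGCTG and 2 hold ACAAAG. Igfbpl1 had no window in the table. A match in letters is a description and no sign of binding.

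Igfbpl1 was held mainly by other neurons than granule neurons. The cluster with both Prdm16 and Ano1 among its leading genes had 933 nuclei of the library labelled MR1 knockout and 872 of the 5XFAD library. Igfbpl1 was found there as 1 UMI (0.311 CPM) in the library labelled MR1 knockout and as 192 UMIs (44.7 CPM, 38.6 to 51.5) in the 5XFAD library, in 0.107% (labelled MR1 knockout) and 14.2% (5XFAD) of the nuclei. In the 5XFAD library the cluster made up 7.30% of the nuclei and held 58.0% of the Igfbpl1 UMIs, and its Igfbpl1 level was 15.2 times (9.24 to 26.6) that of granule neurons, which held 2.95 CPM and a UMI in 0.951% of nuclei at a median of 3436.5 UMIs. In the library labelled MR1 knockout both classes were at or under the floor of 3 UMIs, so no fold is given. Microglia of the 5XFAD library held an Igfbpl1 UMI in 2.49% of nuclei at a median of 1284 UMIs, 17.4 CPM from 6 UMIs. CA1 neurons of that library held 1.44 CPM, CA2/CA3 neurons 1.08 CPM and inhibitory neurons 2.38 CPM. The Prdm16 and Ano1 cluster lay above all of these. Whether the granule level is background was not tested.

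The markers of this cluster were as unequal as Igfbpl1. Ano1 had 4 UMIs in the library labelled MR1 knockout and 619 in the 5XFAD library, Prdm16 8 (labelled MR1 knockout) and 559 (5XFAD), and Zic1, a zinc finger factor, 7 (labelled MR1 knockout) and 402 (5XFAD). The nuclei of the library labelled MR1 knockout in the cluster therefore did not carry the markers it is named by. They were led by other genes, with 1689 UMIs of the long noncoding RNA Rmst against 688 in the 5XFAD library, and 329 of Slc17a6, a vesicular glutamate transporter, against 75. Markers of inhibitory neurons went the other way, with 206 UMIs (labelled MR1 knockout) and 588 UMIs (5XFAD) of Gad1, and 355 UMIs (labelled MR1 knockout) and 1050 UMIs (5XFAD) of Gad2, the enzymes of GABA synthesis, and 119 UMIs (labelled MR1 knockout) and 416 UMIs (5XFAD) of the GABA transporter Slc32a1. The cluster also split by mouse, with 766 nuclei of the female and 30 of the male in the library labelled MR1 knockout, and 8 and 594 nuclei in the 5XFAD library.

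Sub-clustering separated these populations. Sub-cluster 8, led by Prdm16 and Gfra1, had 403 nuclei, all of the 5XFAD library, with 46 Igfbpl1 UMIs or 24.4 CPM, 8.29 times the granule level (4.66 to 15.4). Sub-cluster 10, led by Mob3b, Ano2 and Cpa6, had 148 nuclei of the 5XFAD library and the largest number of Igfbpl1 UMIs of the sub-clusters, 117 or 150 CPM in 44.6% of its nuclei. This was 50.8 times the granule level (30.4 to 90.2). Sub-cluster 10 also held 146 UMIs of Prdm16 and 243 of Ano1, beside 358 and 332 in sub-cluster 8. Sub-cluster 9, led by Eya4, had 33 nuclei of the 5XFAD library with 21 Igfbpl1 UMIs or 165 CPM, an interval of 102 to 252 that overlaps that of sub-cluster 10, 124 to 179. Unlike sub-clusters 8 and 10, sub-cluster 9 held 2 UMIs of Prdm16 and 0 of Ano1. The sub-clusters that held most of the nuclei of the library labelled MR1 knockout, led by 6530403H02Rik (492 nuclei, against 3 of the 5XFAD library) and by Cyp19a1 (240 nuclei, against 18), had 0 and 1 Igfbpl1 UMI in that library. The 6530403H02Rik sub-cluster held 195 UMIs of Slc17a6 and 56 of Gad2, and the Cyp19a1 sub-cluster 3 of Slc17a6, 180 of Gad2 and 75 of Slc32a1, all in the library labelled MR1 knockout. In the 5XFAD library sub-cluster 8 held 1 UMI of Slc17a6, 515 of Gad2 and 179 of Slc32a1, and sub-cluster 10 held 3, 165 and 103. No sub-cluster with an Igfbpl1 ratio to granule neurons above 1, and an interval leaving out 1, had nuclei in both libraries. The Igfbpl1 level of such sub-clusters could therefore not be compared between the libraries.

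**Figure D4:**
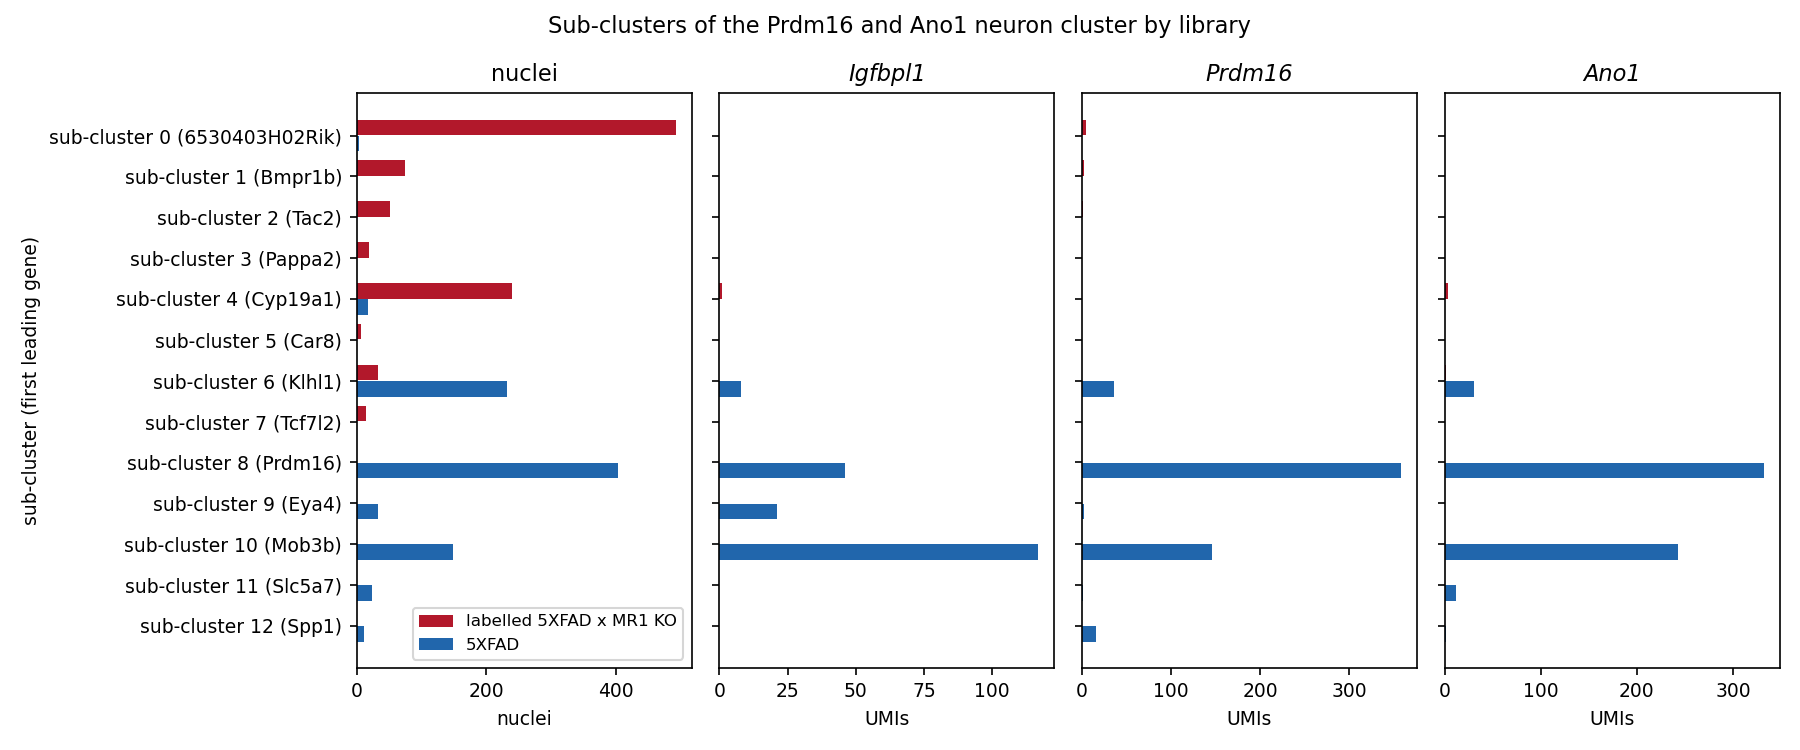
Nuclei (first panel) and UMIs of Igfbpl1, Prdm16 and Ano1 (other panels) in each sub-cluster of the Prdm16 and Ano1 cluster, named by number and first leading gene, with red bars for the library labelled 5XFAD x MR1 KO above blue bars for the 5XFAD library. The 46, 21 and 117 Igfbpl1 UMIs of sub-clusters 8, 9 and 10 all come from nuclei of the 5XFAD library, and the 492 and 240 nuclei of sub-clusters 0 and 4 in the library labelled MR1 knockout hold 0 and 1.

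An unnamed cluster led by Foxp2 and Pbx3 also held Igfbpl1, in both libraries, with 10 UMIs (22.0 CPM, 10.5 to 40.4) among 184 nuclei of the library labelled MR1 knockout and 26 UMIs (30.0 CPM, 19.6 to 43.9) among 270 nuclei of the 5XFAD library. The ratio was 0.73, with an interval of 0.32 to 1.57. It set the female mouse of the library labelled MR1 knockout (157 nuclei assigned, 0 to its male) against the male mouse of the 5XFAD library (148 nuclei, 1 to its female), so that sex and library cannot be told apart there. In single nuclei, whatever their cluster, Igfbpl1 was seen together with Prdm16 in 0 nuclei of the library labelled MR1 knockout and 74 of the 5XFAD library, with Ano1 in 0 (labelled MR1 knockout) and 64 (5XFAD), with Dcx, the microtubule protein of migrating neuroblasts, in 6 (labelled MR1 knockout) and 89 (5XFAD), and with Sox11 in 4 (labelled MR1 knockout) and 38 (5XFAD). Of the Dcx and Igfbpl1 pairs in the 5XFAD library, 59 lay in the Prdm16 and Ano1 cluster and 2 in granule neurons. Dcx was seen in 26.8% (labelled MR1 knockout) and 39.3% (5XFAD) of nuclei of the Prdm16 and Ano1 cluster and in 5.43% (labelled MR1 knockout) and 4.08% (5XFAD) of granule nuclei.

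In the Prdm16 and Ano1 cluster, whose nuclei differed between the libraries, 6 of 9 genes were past the fold, beside 21.9% of all genes. Those above were Neurod1, Neurod2, Prox1 and Sox11, and those below Igfbpl1 and Sox2. Outside the granule and the Prdm16 and Ano1 classes, 0 to 2 of the genes were past the fold in each class listed here. In CA1 neurons 2 of 9 were, Prox1 with 6.35 CPM in the library labelled MR1 knockout and 4.14 CPM in the 5XFAD library and Igfbpl1 with 5 UMIs (labelled MR1 knockout) and 16 UMIs (5XFAD), beside 10.3% of all genes there. In CA2/CA3 neurons 0 of 8 were, beside 10.5%, and in inhibitory neurons 1 of 8, Neurod1 with 14 UMIs (labelled MR1 knockout) and 6 UMIs (5XFAD), beside 12.9%. In subicular or cortical neurons 1 of 8 was, Neurod1 with 7.64 CPM (labelled MR1 knockout) and 3.97 CPM (5XFAD), beside 14.4%. In astrocytes 1 of 5 was, Prox1 with 7 UMIs (labelled MR1 knockout) and 14 UMIs (5XFAD), beside 25.5%. In oligodendrocyte precursors 2 of 7 were, Neurod2 with 15 UMIs (labelled MR1 knockout) and 7 UMIs (5XFAD) and Bcl11b with 24 (labelled MR1 knockout) and 28 (5XFAD), beside 21.8%. In microglia Neurod2 (50.2 CPM labelled MR1 knockout, 23.2 CPM 5XFAD) and Sox4 (29.9 CPM labelled MR1 knockout, 14.5 CPM 5XFAD) were past the fold, 2 of 5 beside 25.0%, and in oligodendrocytes Neurod2 (50.9 CPM labelled MR1 knockout, 17.8 CPM 5XFAD) and Sox11 (16.6 CPM labelled MR1 knockout, 10.2 CPM 5XFAD), 2 of 7 beside 18.4%. In the shallow AY036118 cluster Neurod1 and Neurod2 were (82.9 CPM labelled MR1 knockout, 39.5 CPM 5XFAD for Neurod2), 2 of 5 beside 35.4%. In the Foxp2 and Pbx3 cluster 2 of 6 were, Sox4 above and Bcl11b below, beside 29.4%. In the Tshz2 cluster 2 of 4 were, Neurod2 above and Bcl11b below, beside 38.2%. In the Hapln1 and Egfr cluster 0 of 6 were, beside 20.2%. The values of microglia, oligodendrocytes and the shallow cluster were higher in the library labelled MR1 knockout, on 5 to 49 UMIs of a gene in a class and library.

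The wider lineage was followed with 6 gene lists. Over all nuclei, 4 of 18 measured genes of stem and radial glia lay above and 1 below the fold, and their log2 ratios had a median of 0.15. Gfap, an intermediate filament of astrocytes and radial glia, held 51.3 CPM in the library labelled MR1 knockout and 33.0 CPM in the 5XFAD library (ratio 1.56), and the LIM factor Lhx2 23.1 CPM (labelled MR1 knockout) and 14.3 CPM (5XFAD), a ratio of 1.62, while the Notch target Hes1 (0.87) and the lipid carrier Fabp7 (0.88) lay below 1. Genes of dividing cells showed 1 of 13 above and 2 below, with a median of 0.09. The proliferation marker Mki67 held 8.49 CPM (labelled MR1 knockout) and 8.98 CPM (5XFAD), a ratio of 0.95, and the replication clamp Pcna 18.3 CPM (labelled MR1 knockout) and 15.2 CPM (5XFAD), a ratio of 1.20, and Mki67 was seen together with Top2a, another gene of dividing cells, in 5 nuclei (labelled MR1 knockout) and 4 nuclei (5XFAD). Genes of intermediate progenitors and neuroblasts showed 2 of 15 above and 0 below, with a median of 0.24, and Dcx held 55.8 CPM (labelled MR1 knockout) and 60.3 CPM (5XFAD), a ratio of 0.92. Beside these counts and medians stand 11.1% of all genes above and 4.25% below the fold over all nuclei, with a median of 0.13. Within granule neurons 5 of 15 stem and radial glia genes lay above and 1 below the fold, with a median of 0.34. For neuroblast genes 3 of 9 lay above and 1 below (0.30), and for dividing cell genes 1 of 5 above and 3 below (-0.59). Among all genes there, 14.6% lay above and 6.15% below, with a median of 0.13. Dcx held 25.8 CPM from 236 UMIs (labelled MR1 knockout) and 11.8 CPM from 68 UMIs (5XFAD) in granule neurons.

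Summed over all nuclei, the markers fixed for neuroblasts had 107.9 CPM in the library labelled MR1 knockout and 100.7 CPM in the 5XFAD library. Those for radial glia-like progenitors had 44.7 CPM (labelled MR1 knockout) and 41.8 CPM (5XFAD), and those for dividing cells 17.2 CPM (labelled MR1 knockout) and 16.9 CPM (5XFAD). No cluster was named for these classes, so the sums are not levels of such cells. Of the neuroblast sum, Dcx made up 3106 of 6007 UMIs (labelled MR1 knockout) and 3371 of 5629 UMIs (5XFAD). No marker of the 3 sets was at 0 in either library, but the neuroblast marker Nhlh1 had 17 UMIs (labelled MR1 knockout) and 2 UMIs (5XFAD). Nuclei with UMIs of Dcx, Sox11 and Neurod1 together numbered 25 in the library labelled MR1 knockout and 21 in the 5XFAD library, of which 2 (labelled MR1 knockout) and 1 (5XFAD) were granule nuclei, and those with Dcx, Sox11 and Sox4 together numbered 17 (labelled MR1 knockout) and 33 (5XFAD).

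Within granule neurons the mature genes lay on both sides of 1. Of 15 mature granule genes, 2 lay above and 3 below the fold, with a median log2 ratio of 0.10. Beside the list counts of this paragraph stand 14.6% of all genes above and 6.15% below in granule neurons, with a median of 0.13. Rfx3, a ciliogenic factor, held 1145 CPM in the library labelled MR1 knockout and 1711 CPM in the 5XFAD library (0.67), and Ahcyl2 551 CPM (labelled MR1 knockout) and 1019 CPM (5XFAD), a ratio of 0.54, while Stxbp6 (1.07) and Ntng1 (1.13) lay near 1. Within the Glis3 cluster Rfx3 held 1634 CPM (labelled MR1 knockout) and 1792 CPM (5XFAD), and Ahcyl2 972 and 1067 CPM. Within the C1ql2 cluster Rfx3 was higher in the library labelled MR1 knockout, at 893 against 744 CPM, and Ahcyl2 lower, at 334 against 443 CPM. The pooled ratios therefore also carry the mix of these clusters. Of 19 hippocampal transcription factors, 0 lay above and 1 below, with 14 of 19 under a ratio of 1 and a median of -0.12. The mineralocorticoid receptor Nr3c2 held 510.02 CPM (labelled MR1 knockout) and 988 CPM (5XFAD), a ratio of 0.52, and Zbtb20, a zinc finger factor of hippocampal neurons, 2592 CPM (labelled MR1 knockout) and 2942 CPM (5XFAD), a ratio of 0.88. Of 14 partners and paralogs of the genes, 2 lay above and 1 below, with the E protein partners of the Neurod factors near 1 (Tcf4 0.93, Tcf12 0.88) and Igfbp5 at 0.52.

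Each gene was also set beside all others by the correlation of log2(CPM + 1) over 40 points, 20 clusters in each of the libraries, which share their depth and are described without a test. Neurod2 was most like Slc17a7, the vesicular glutamate transporter of cortical and hippocampal neurons (r = 0.89), Neurod6 like Fhl2 (0.87) and Nr4a3 (0.82), and Prox1 like Prox1os (0.91), an antisense transcript that overlaps it and whose reads may not be told apart from its own. Sox2 was most like Vezf1 and 3222401L13Rik (0.83 each), Bcl11b like Pde4a (0.76), Sox11 like Maco1 (0.78), Sox4 like C1ql1 (0.73) and Neurod1 like Akr7a5 (0.72). Isl1 was among the 3 genes most like Igfbpl1 (0.77). Among the genes themselves the closest were Neurod2 and Neurod6 (0.65), Neurod1 and Neurod2 (0.59) and Sox4 and Sox2 (0.53). Sox2 lies inside the longer transcript Sox2ot on the same strand, and Neurod1 overlaps Cerkl on the same strand, so part of their reads may belong to these neighbours.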

How the data were processed

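Nuclei of flash-frozen hippocampus (20 mg, 10000 nuclei targeted) were profiled with 10x 3' chemistry, per the labels' protocols. The authors deposited raw UMI counts per gene and barcode, made with Cell Ranger 7.0.0 on mm10 per the submitters' processing notes, which also name Seurat without a role. The matrices held 26212 barcodes with 85678909 UMIs (labelled MR1 knockout) and 25238 with 106861726 (5XFAD). Whether introns were counted is not given in the sources used here.

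Nuclei with at least 500 genes and under 5% mitochondrial UMIs were kept (22263 labelled MR1 knockout, 15408 5XFAD). Scrublet, run at 0.8% doublets per 1000 barcodes, removed 4777 (labelled MR1 knockout) and 3215 (5XFAD), since its automatic threshold gave 12.7% (labelled MR1 knockout) and 5.83% (5XFAD). Clusters with at least 15% of nuclei holding both Xist and Y-linked UMIs were left out as mixed (460 nuclei labelled MR1 knockout, 245 nuclei 5XFAD). Both libraries were clustered together with scanpy 1.11.5 (2500 variable genes without the 10 genes, 40 components, 20 neighbours, Leiden resolution 1.5), and a cluster was named from at least 3 markers among its top 50 genes by fold. No cluster was named for mossy cells, neuroblasts, radial glia-like progenitors, dividing cells, border macrophages, T lymphocytes, endothelial cells, pericytes or ependymal cells. A nucleus was female with at least 2 Xist and no Y-linked UMIs and male with at least 1 Y-linked and no Xist UMI.

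UMIs were summed by class and library and divided by the class total (CPM), with exact Poisson intervals, exact conditional binomial intervals for ratios and exact binomial (Clopper-Pearson) intervals for shares. With 1 library a group no test was made. Alternatives were other filters, clusterings, scalings (median of ratios, edgeR 4.0.16 TMM), single mice, single clusters and thinning. The ratio was tested on simulated data. Genes named are the 10 genes, at most 4 of each list by UMIs, and the 3 genes most like each, of which those with the highest r are given, except 1 gene that is not reported here. The markers Slc17a6, Gad1, Gad2, Slc32a1, Rmst and Zic1 and the sub-clusters were singled out after their values were seen. The genes and lists were chosen with earlier results of these data known. Positions are those of GENCODE M21 on GRCm38, which matched 32235 of 32285 gene IDs.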

Additional observations from a re-analysis of the deposited data

Results flagged for a closer look

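In 4 of 66 pairs of a gene and a class, the ratio of the library labelled MR1 knockout over 5XFAD lay above 1 between the female or the male mice and below 1 between the others, with neither 95% counting interval including 1. The difference between the sexes was not tested, since each value rests on 1 mouse a library.

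Over all nuclei, Neurod6 had a ratio of 0.503 (0.475 to 0.533) between the female mice and 1.56 (1.45 to 1.68) between the male mice. Prox1 over all nuclei had 0.792 (0.735 to 0.853) between the female and 3.40 (2.96 to 3.90) between the male mice. The male mouse of the 5XFAD library had 3.88% granule neurons among its nuclei, beside 22.8% to 25.2% in the other 3 mice, and within granule neurons the Prox1 ratio between the male mice was 1.01 (0.84 to 1.23).

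Bcl11b differed by mouse within classes. In CA2/CA3 pyramidal neurons its ratio was 1.39 (1.13 to 1.70) between the female mice, with 51.7 CPM in the library labelled MR1 knockout and 37.3 CPM in the 5XFAD library, and 0.675 (0.512 to 0.893) between the male mice, with 37.8 CPM (labelled MR1 knockout) and 56.0 CPM (5XFAD). In inhibitory neurons it was 1.68 (1.30 to 2.19) between the female mice, with 59.6 CPM (labelled MR1 knockout) and 35.4 CPM (5XFAD), and 0.350 (0.225 to 0.533) between the male mice, with 26.0 CPM (labelled MR1 knockout) and 74.2 CPM (5XFAD). Pooled over both mice, these classes gave ratios of 0.99 and 1.03.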

How the results depend on the processing

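No paired analysis was possible because each group is 1 library. Over all nuclei the count of genes past the fold, 2, was 6 in the male mice alone and 1 without clusters taken over 80% from 1 library. In granule neurons the count, 4, was 2 under each of 8 settings: under 1% mitochondrial UMIs, female mice alone, thinning to 1000 UMIs, 1 random draw of it, the C1ql2 cluster alone, the Glis3 cluster alone, median of ratios size factors and edgeR TMM. Sox11 was among the genes past the fold in 7 of these 8, all but the Glis3 cluster (1.41). The shares of all genes are given above for the C1ql2 and Glis3 clusters alone. For the other settings neither that share nor the number of genes with enough UMIs is given. The counts therefore describe the settings only and are not read as a result about the genes. The Igfbpl1 ratio of the Prdm16 and Ano1 cluster over granule neurons in the 5XFAD library, 15.2, was 5.99 in the male mouse alone and 8.29 in the sub-cluster with both markers among its leading genes. It had no value in the female mouse (8 nuclei) or in the library labelled MR1 knockout. With the 10 genes allowed among the variable genes, the cluster held 2 nuclei (labelled MR1 knockout) and 592 nuclei (5XFAD). Of 516 other values of 47 single ratios, 63 lay on the other side of 1, of which 60 were of ratios within the fold. The 3 others were ratios past it: Neurod1 in granule neurons in 1 random draw (0.989, mean over draws 1.37), Sox4 in the Glis3 cluster (0.803), and Prox1 in astrocytes without a mitochondrial limit (1.41, reported 0.597). The cause was not tested. TMM shifted all log2 ratios by -0.13 over all nuclei and -0.10 in granule neurons. Single clusters, sub-clusters, single draws and the setting without one-library clusters were chosen after seeing the data. Depth limits Eomes, Igfbpl1 and, by mouse, Neurod1 and Sox4.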
